A study of Mus musculus with 4 samples.

Results

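The genes described here are the mouse mitochondrial ribosomal protein genes, taken as every listed symbol made only of Mrpl or Mrps, a number and at most 1 letter. This choice by name alone gave 78 of the 16861 genes listed in the libraries. Each of the 78 symbols occurs once in the annotation as a protein-coding gene, and together they lie on 17 chromosomes. By known place in the ribosome, 51 belong to the large subunit and 26 to the small subunit. Mrps36 is the exception, since its product is a component of the 2-oxoglutarate dehydrogenase complex and not of the ribosome. Mrps30 and Mrps18a carry small subunit names but encode large subunit proteins, and were counted there.

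RNA was measured by Smart-seq2, a poly(A)-primed full-length method, in germinal vesicle oocytes of 3-week-old C57BL/6J female mice. Oocytes freed of cumulus cells were stained with a Hoechst DNA dye and classified by chromatin as NSN (non-surrounded nucleolus, with dispersed chromatin) or SN (surrounded nucleolus, with chromatin condensed in a ring). Staining took place in medium with milrinone, a phosphodiesterase inhibitor that keeps oocytes in meiotic arrest, and sorting exposed both groups briefly to ultraviolet light. There were 2 NSN and 2 SN libraries of 15 pooled oocytes each, holding between 17069772 and 17998361 read pairs. Nothing in the labels ties a library to one mouse, so p-values measure the spread between pools of oocytes, which may be technical, and in pooled oocytes fewer molecules in each cell cannot be told apart from fewer cells that hold them.

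Mitochondria carry their own ribosome, which translates the few messenger RNAs of the mitochondrial genome into subunits of the respiratory chain and ATP synthase. Its ribosomal RNAs are transcribed inside the organelle, while all of its proteins are encoded in the nucleus, made in the cytosol and imported. Many of these proteins have counterparts in bacterial ribosomes, and the others are found in mitochondria alone. Oocytes hold a very large number of mitochondria, which are inherited by the embryo. Nuclear genes for mitochondrial translation are known for compact promoters with NRF1, ETS (GABP) and YY1 sites, and many share a start region with a neighbouring gene on the other strand.

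The start regions of 3 members are printed, those of the single called gene and of the largest positive fold change, and 1 that holds motifs of the other kinds. Each covers 250 bases before and 50 bases from the start of the canonical transcript, on the gene's own strand, in GRCm39. Capitals mark a match, on either strand, to an NRF1-type (GCGCANGCG), ETS-type (CCGGAAG) or YY1-type (AAGATGGC) motif. Mrpl1 (chr5:96356896-96357195, plus strand) was the only member called in the comparison of SN with NSN oocytes and has none of the 3 motifs. Mrpl30 (chr1:37929308-37929607, plus strand) had the largest positive fold change and has 2 NRF1-type matches. Mrps12 (chr7:28441219-28441518, minus strand), which encodes a decoding centre protein, has 1 YY1-type and 1 ETS-type match.
Mrpl1: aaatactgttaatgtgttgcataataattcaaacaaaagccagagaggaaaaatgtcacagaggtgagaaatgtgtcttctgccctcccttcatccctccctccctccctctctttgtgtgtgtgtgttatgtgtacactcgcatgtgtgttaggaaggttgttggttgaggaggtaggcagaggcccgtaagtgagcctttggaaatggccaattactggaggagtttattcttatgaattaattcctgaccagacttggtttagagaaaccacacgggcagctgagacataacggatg
Mrpl30: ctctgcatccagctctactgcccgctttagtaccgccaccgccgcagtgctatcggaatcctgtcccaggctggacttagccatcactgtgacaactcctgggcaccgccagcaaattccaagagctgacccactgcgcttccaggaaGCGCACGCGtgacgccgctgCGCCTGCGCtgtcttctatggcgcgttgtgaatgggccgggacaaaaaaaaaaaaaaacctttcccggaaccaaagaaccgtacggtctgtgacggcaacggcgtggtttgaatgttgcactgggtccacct
Mrps12: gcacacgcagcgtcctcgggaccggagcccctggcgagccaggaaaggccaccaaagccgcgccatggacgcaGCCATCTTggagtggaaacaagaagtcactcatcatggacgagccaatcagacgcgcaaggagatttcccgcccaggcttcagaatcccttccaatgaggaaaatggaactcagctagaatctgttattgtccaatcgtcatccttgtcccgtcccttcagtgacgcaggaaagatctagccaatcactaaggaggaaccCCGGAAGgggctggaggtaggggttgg

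A further region is printed because it is the start of a pair of members at once. The canonical start of Mrpl46 (minus strand) and that of Mrps11 (plus strand) lie 30 bases apart on chromosome 7, at 78432837 and 78432867. The 150 bases around them (chr7:78432778-78432927, plus strand) hold none of the motifs searched, CCAAT and TATAAA included. The longer 300-base windows used for the counts over all members hold a YY1-type match for Mrps11 and a TATAAA match for Mrpl46.
Mrpl46 and Mrps11: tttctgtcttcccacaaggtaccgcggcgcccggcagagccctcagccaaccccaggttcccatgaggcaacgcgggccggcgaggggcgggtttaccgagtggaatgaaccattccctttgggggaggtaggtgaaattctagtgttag

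Over all 78 members, an ETS-type match lay in 24 of the 300-base windows (30.8%), against 14.8% of the 12998 windows of all listed protein-coding genes with a start. An NRF1-type match lay in 16 (20.5%, against 11.6%) and a YY1-type match in 6 (7.69%, against 3.30%). At least 1 of these 3 was found for 38 members (48.7%, against 26.4%). CCAAT was present in 27 windows (34.6%, against 39.9%) and TATAAA in 8 (10.3%, against 9.10%). These shares are descriptions of letters in a window, and no factor's binding was measured.

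All 78 genes were detected in each of the 4 libraries, but at very different levels. The deposited unit is FPKM, read pairs scaled by gene length and by library depth. It allows comparison between genes of different length, but the levels and their order depend on the length taken for each gene. Mean FPKM over the libraries ran from 0.182 for Mrpl19 to 174 for Mrps33, a ratio of 954. Of the members, 74 had a mean FPKM of at least 1, 53 of at least 10 and 7 of at least 100. The 10 highest genes held 47.9% of the summed FPKM of all 78. The order of the levels was nearly the same within a group: across the 78 genes, which share their libraries, Pearson's r of log2(FPKM + 0.5) was 0.989 between the NSN and 0.992 between the SN replicates.

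**Figure D1:**
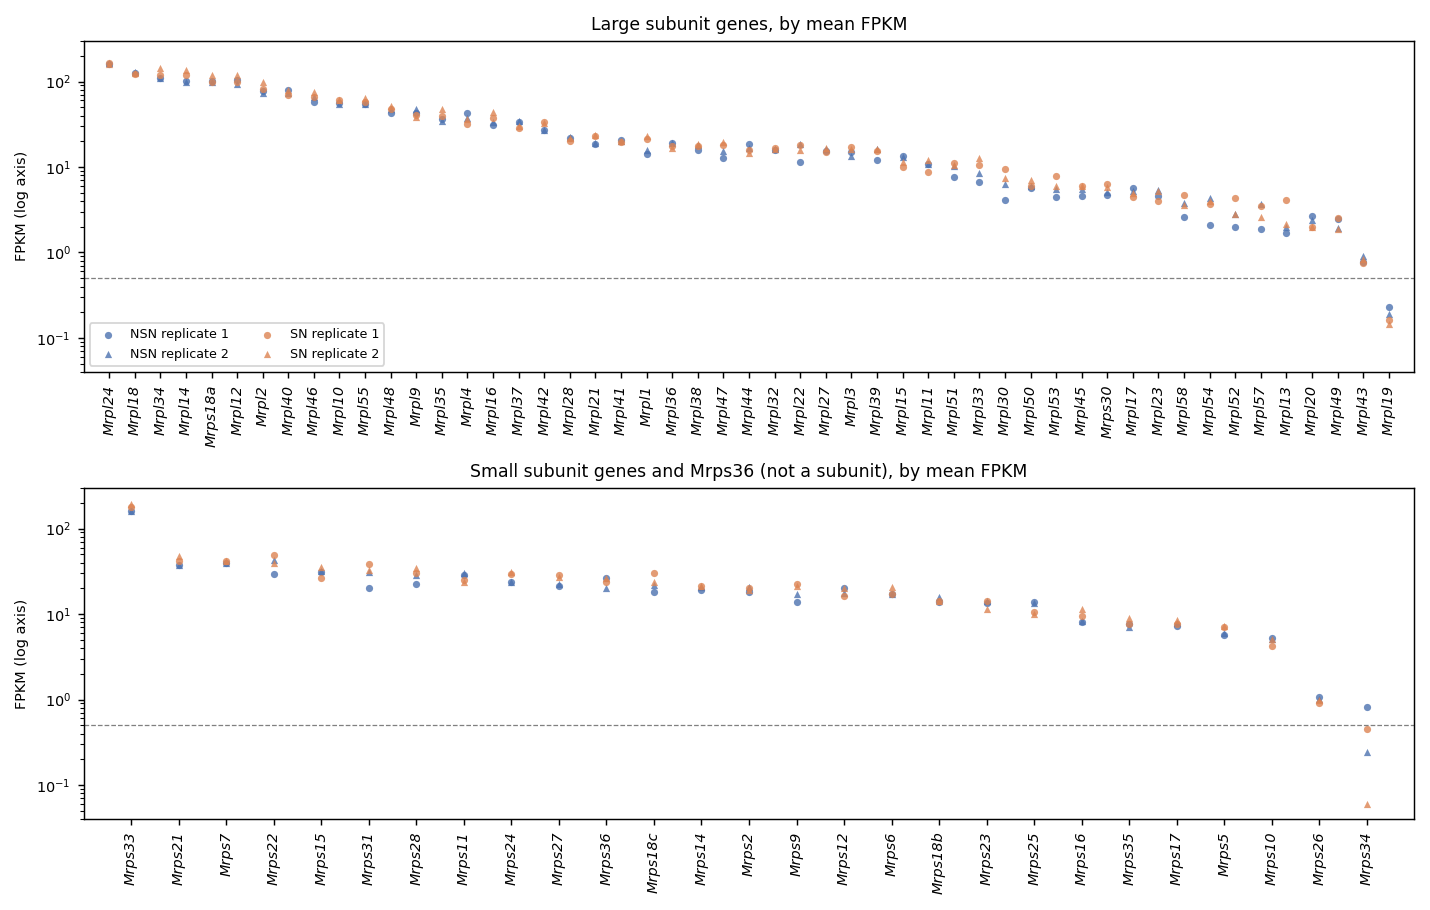
FPKM on a log axis of all 78 genes in each library, ordered by mean FPKM, with large subunit genes above and small subunit genes with Mrps36 below. Blue points are NSN and orange points SN libraries, circles replicate 1 and triangles replicate 2, and the dashed line is the minimum mean FPKM of 0.5 for testing. The 4 points of a gene mostly lie close together, while genes spread from 0.182 to 174 in mean FPKM.

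The highest member was Mrps33, a mitochondria-specific small subunit protein, at 163 and 162 FPKM in the NSN and 177 and 193 in the SN libraries. Mrpl24, a protein by the exit of the peptide tunnel, followed at 159.9 and 164 in NSN and 165 and 161 in SN oocytes. Next came Mrpl18, a protein of the central protuberance of the large subunit, with 126 and 128 in NSN and 122 and 125 in SN oocytes. The SN values of Mrps33 lay above its NSN values, those of Mrpl24 overlapped with them, and those of Mrpl18 lay just below. Mrpl34 reached 111 and 109.9 FPKM in NSN and 118 and 143 in SN oocytes. Mrpl14, an intersubunit face protein, stood at 101 and 98.2 in NSN and 118 and 136 in SN oocytes. Neighbours in this order were close: Mrps33 and Mrpl24 were within 3 FPKM of each other in both NSN libraries and apart in the SN libraries.

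At the other end, Mrpl19 was listed at 0.230 and 0.190 FPKM in NSN and 0.164 and 0.144 in SN oocytes, from 16 read pairs a library on average. Mrps34 was listed at 0.813 and 0.243 in NSN and 0.447 and 0.0605 in SN oocytes, from 6.25 read pairs on average. Both stayed below the minimum for testing, so 76 members were tested. Of the tested genes, Mrpl43 had the lowest level, with 0.781 and 0.919 FPKM in NSN and 0.754 and 0.835 in SN oocytes. Mrps26 (1.06 and 1.005 in NSN, 0.918 and 0.987 in SN) and Mrpl49 (2.44 and 1.93 in NSN, 2.56 and 1.86 in SN) came next. Messengers for proteins of one particle were thus present at widely different levels. Mrps34 shares 84.4% of its exonic bases with neighbouring genes, Mrpl19 36.0% and Mrpl43 33.4%. Read pairs were counted without regard to strand, and the authors' stated options do not assign a pair to more than 1 gene. Pairs in the shared part may thus be counted for neither gene, and the effect on these levels was not tested.

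Summed over the 78 members, FPKM came to 2213 and 2272 for NSN and to 2379 and 2546 for SN oocytes. Large subunit genes summed to 1586 and 1608 in NSN and to 1663 and 1809 in SN oocytes. Small subunit genes summed to 601 and 644 in NSN and to 692 and 710.3 in SN oocytes. The large to small ratio was 2.64 and 2.50 in NSN and 2.40 and 2.55 in SN oocytes, so the groups overlapped in the balance of the subunits. As a share of all read pairs, the members took 0.332% and 0.343% in NSN and 0.355% and 0.375% in SN oocytes. With 2 libraries a group, an exact permutation test cannot give a p below 0.3333, and no test was made of these sums. The share of all read pairs held by the 100 top genes was 39.9% and 38.8% for NSN and 35.5% and 35.4% for SN oocytes, and its part in the sums was not tested.

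Between SN and NSN oocytes, 1 mitochondrial ribosomal protein gene passed the test, and the family as a whole had the same median change as all genes. The comparison asks whether the transcripts that oocytes store for mitochondrial translation differ once the chromatin has condensed. Of the 76 members tested with limma on log2(FPKM + 0.5), Mrpl1 was called higher in SN oocytes and none was called lower, where a call took an adjusted p (Benjamini-Hochberg) below 0.05 together with a change of 1.2-fold or more. Among all 11672 genes tested, 5.95% were called higher and 1.98% lower. At an unadjusted p under 0.05 there were 22 members (28.9%) and 3695 genes (31.7%). The single call is 1.32% of the tested members.

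The median log2 fold change (log2FC, SN over NSN) of the 76 members was 0.14, and that of all tested genes was also 0.14. Of the members, 52 had a positive log2 fold change, and the range ran from -0.39 to 0.67. The positive sign of this median was lost under another scaling, since it became -0.012 when each library was scaled to its median gene, which moved the median of all genes to 0.0051. Relative to the median of all genes the members' median was 0.0034 higher in the fit used and 0.017 lower under median scaling. Both SN libraries lay above both NSN libraries for 35 members (46.1%), against 44.8% of all genes, and below them for 14 (18.4%), against 17.8%. For the other 27 members the groups overlapped. These shares lie near the background and are not a result about the members.

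**Figure D2:**
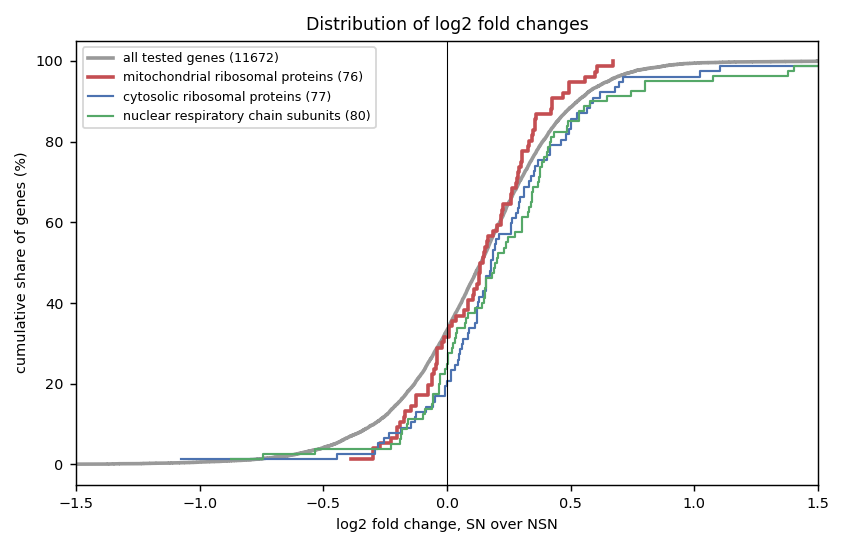
Cumulative share of genes (%) against log2 fold change, SN over NSN, for all tested genes, the 76 tested mitochondrial ribosomal protein genes, the cytosolic ribosomal protein genes and the nuclear respiratory chain subunits. The line of the mitochondrial ribosomal protein genes crosses that of all genes near their shared median of 0.14 and ends at 0.67, while a few genes of the other sets lie beyond the drawn axis.

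The intervals around these fold changes say how large a change could have been missed. The 95% interval of the log2 fold change lay within a 2-fold change in either direction for 73 of the 76 members and within 1.5-fold for 56. The median absolute log2 fold change was 0.20 for members and 0.24 for all tested genes. For comparison, the median absolute difference between replicates on the same scale was 0.10 in NSN and 0.14 in SN oocytes. NSN replicate 1 gave the lowest of the 4 values for 38 of the 78 members and SN replicate 2 the highest for 33. Among all tested genes NSN replicate 1 was lowest in 46.3% and SN replicate 2 highest in 32.1%.

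**Figure D3:**
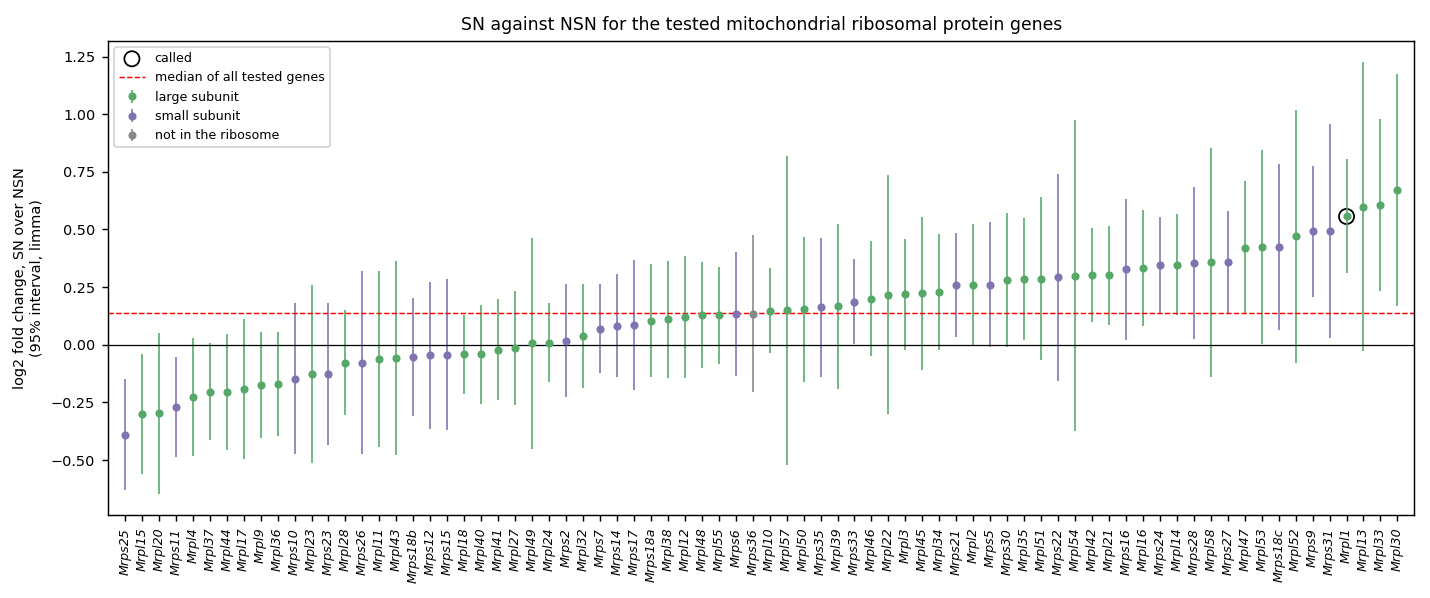
Log2 fold change, SN over NSN, of the 76 tested members with its 95% interval from limma, in rising order and coloured by subunit. The dashed line is the median of all tested genes (0.14), the circle marks Mrpl1, the single member called, and most intervals include 0.

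Mrpl1 encodes the protein of the L1 stalk, the mobile arm of the large subunit beside the site where spent tRNA leaves. Its gene lies on chromosome 5 (96357146 to 96414586, plus strand). Mrpl1 stood at 14.2 and 15.6 FPKM in NSN and at 21.3 and 23.1 FPKM in SN oocytes, so the groups did not overlap. The means were 14.9 ± 1.01 and 22.2 ± 1.28 (SD, n = 2 each), and the log2FC was 0.56 with an SE of 0.10 (limma, adjusted p = 0.039). The value rests on 1402 read pairs a library on average, and no other gene shares its exons. In 15 other fits the log2FC of Mrpl1 stayed between 0.38 and 0.62, but only 5 of them called it. The fits that change only the genes tested, the variance trend or the replicate block could not move this log2FC. In the fits with all libraries its adjusted p (limma) ran from 0.0026 to 0.10. Leaving out NSN replicate 1 (adjusted p = 0.105), SN replicate 1 (0.0799) or SN replicate 2 (0.122) ended the call.

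The other members with the largest positive fold changes were mostly low in abundance and did not pass the test. Mrpl30 (chromosome 1, 37929558 to 37939816), a large subunit protein with a bacterial counterpart, gave 4.07 and 6.25 FPKM in NSN and 9.39 and 7.42 in SN oocytes. Its log2FC was 0.67 with an SE of 0.21 (limma, adjusted p = 0.0887), and 0.39 without NSN replicate 1. Mrpl33 (chromosome 5, 31754279 to 31837542), also of the large subunit, gave 6.61 and 8.41 in NSN and 10.5 and 12.8 in SN oocytes, a log2FC of 0.61 (SE 0.16, limma, adjusted p = 0.0608). In both genes the SN libraries lay above the NSN libraries. Mrpl13 had 1.69 and 1.96 FPKM in NSN and 4.12 and 2.18 in SN oocytes, from 53.3 read pairs on average, and its fold change of 0.60 on the log2 scale rested largely on SN replicate 1, since without that library it was 0.21. Mrps31, a mitochondria-specific small subunit protein, had 20.4 and 30.7 in NSN and 38.7 and 32.5 in SN oocytes (log2FC 0.49 ± 0.19 SE, limma, adjusted p = 0.14), and its log2FC was 0.20 without NSN replicate 1 and 0.78 without NSN replicate 2. NSN replicate 1 was the lowest library for all of these genes.

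The 5 largest negative fold changes did not pass the test either. Mrps25, a mitochondria-specific small subunit protein, was at 13.7 and 13.5 FPKM in NSN and at 10.5 and 9.97 in SN oocytes, with a log2FC of -0.39 (SE 0.10, limma, adjusted p = 0.0615). Its gene (chromosome 6, 92125876 to 92161043, minus strand) shares 69.5% of its exonic bases with Nr2c2 on the other strand. Nr2c2 was listed at 0.103 to 0.274 FPKM, but the values of both genes may leave out pairs in the shared part. Mrps25 was called lower under quantile normalization (log2FC -0.57, adjusted p = 0.0497). Mrpl15, a core protein of the large subunit, had 13.6 and 13.1 in NSN and 10.1 and 11.3 in SN oocytes (log2FC -0.30, limma, adjusted p = 0.117). Mrpl20, with 2.67 and 2.41 in NSN and 1.96 and 1.98 in SN oocytes, gave -0.30 (limma, adjusted p = 0.21). Mrpl4 had 42.6 and 37.5 in NSN and 32.1 and 36.1 in SN oocytes, a log2FC of -0.23 (limma, adjusted p = 0.195). Mrps11, with a log2FC of -0.27, is described with its neighbour. In each of these genes both SN libraries were below both NSN libraries.

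**Figure D4:**
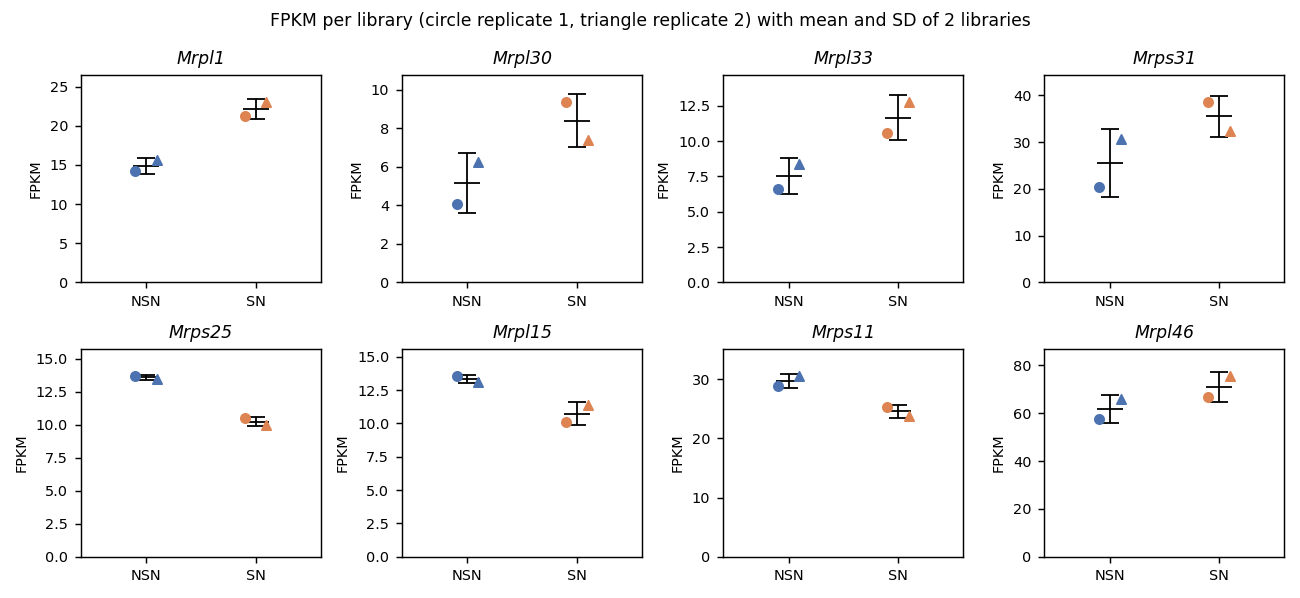
FPKM of 8 members in each library, with NSN in blue, SN in orange, circles for replicate 1, triangles for replicate 2 and bars for the mean and SD of 2 libraries. Mrpl1 shows separate groups with little spread, Mrpl30 and Mrps31 show wide spread within NSN, and Mrps25, Mrpl15 and Mrps11 are lower in both SN libraries.

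Besides Mrpl1, 11 members (14.5%) had an adjusted p between 0.05 and 0.1, against 12.7% of all tested genes. They were picked out after their values were seen. In 10 of them the SN libraries were higher: Mrpl14, Mrpl16, Mrpl21, Mrpl30, Mrpl33, Mrpl42, Mrpl47, Mrps9, Mrps24 and Mrps27. Mrps25 was the one with lower SN values. Closest to the threshold was Mrps9, a small subunit protein with a bacterial counterpart, at 13.9 and 17.0 FPKM in NSN and 22.2 and 21.4 in SN oocytes (log2FC 0.49, limma, adjusted p = 0.054). When the test was limited to the 5519 genes whose mean reached 5 FPKM, 11 of 65 members passed, 10 up and 1 down, which is 16.9% against 27.1% of those genes. Leaving out NSN replicate 2 also gave 11 called members (14.5%), against 14.4% of all genes, and leaving out any other library gave none.

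The 39 members not described one by one lay between 2.93 and 82.6 in mean FPKM and between -0.20 and 0.47 in log2FC. SN lay above NSN in 15 of them and below in 6, and in 18 the groups overlapped. Their lowest adjusted p in limma was 0.12.

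Split by subunit, 1 of 50 tested large subunit genes and 0 of 25 small subunit genes were called. An unadjusted p under 0.05 was found for 22.0% of the large and 44.0% of the small subunit genes, against 31.7% of all tested genes. The median log2FC was 0.15 for the large and 0.13 for the small subunit. SN lay above NSN in 21 large subunit genes (42.0%) and below in 10 (20%), and above in 14 small subunit genes (56.0%) and below in 4 (16%), where all genes had 44.8% above and 17.8% below. Of the 45 tested proteins with a bacterial counterpart, 25 (55.6%) were higher in both SN libraries and 10 (22.2%) lower, with a median of 0.13. Of the 30 tested mitochondria-specific proteins, 10 (33.3%) were higher and 4 (13.3%) lower, with a median of 0.16, and 16 overlapped. No test of these differences was made.

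Members with a special place or second role also showed no call. Mrpl12 forms the mobile stalk that recruits translation factors and is known to bind the mitochondrial RNA polymerase, and Mrpl10 anchors it. Mrpl12 stood at 105 and 93.7 FPKM in NSN and at 98.9 and 118 in SN oocytes, with overlapping groups (log2FC 0.12, limma, adjusted p = 0.483). Mrpl10 stood at 55.4 and 54.4 in NSN and at 61.2 and 60.5 in SN oocytes, and its groups did not overlap (0.15, limma, adjusted p = 0.237). Mrpl45, which helps to seat the ribosome at the inner membrane, was at 4.54 and 5.60 in NSN and 5.93 and 6.01 in SN oocytes (0.22, limma, adjusted p = 0.313). Mrpl44, a protein with a ribonuclease III fold, was at 18.5 and 16.6 in NSN and 15.7 and 14.6 in SN oocytes (-0.20, limma, adjusted p = 0.232). Mrpl58, a peptidyl-tRNA hydrolase that rescues stalled ribosomes, was at 2.57 and 3.79 in NSN and 4.74 and 3.62 in SN oocytes (0.36, limma, adjusted p = 0.28), where the groups overlapped.

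The S18 family, whose 3 paralogues occupy different places in the ribosome, spread widely in level. Mrps18a, of the large subunit, stood at 101 and 99.3 FPKM in NSN and at 98.2 and 118 in SN oocytes. Mrps18b was at 13.9 and 15.8 in NSN and 14.3 and 14.2 in SN oocytes. Mrps18c was at 18.0 and 22.2 in NSN and 30.4 and 23.9 in SN oocytes, the only one of the 3 whose groups did not overlap (log2FC 0.42, limma, adjusted p = 0.114). Mrps18c shares 84.0% of its exonic bases with Helq and Abraxas1 and a transcript of unknown coding status. Helq stood at 26.4 and 30.6 in NSN and 36.3 and 40.2 in SN oocytes. Pairs in the shared part may be counted for neither gene, and the effect on the value of Mrps18c was not tested. Mrps30 was at 4.76 and 5.06 in NSN and 6.30 and 5.84 in SN oocytes (0.28, limma, adjusted p = 0.17). Mrps36, the 2-oxoglutarate dehydrogenase component, was at 26.3 and 20.1 in NSN and 24.0 and 26.6 in SN oocytes, with overlap (0.13, limma, adjusted p = 0.547).

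A start on the opposite strand of another coding gene lay within 1000 bases of the start of 27 members (34.6%), against 12.9% of the 13011 listed protein-coding genes. For 10 of these 27 members, Mrpl46 and Mrps11 both among them, the starts were within 100 bases. Mitd1, a midbody protein gene whose start is 61 bases from that of Mrpl30, was the only tested partner called, at 21.5 and 21.4 FPKM in NSN and 28.0 and 31.1 in SN oocytes (log2FC 0.45, limma, adjusted p = 0.0451). This call was kept in 5 of 15 other fits, with adjusted p of up to 0.156. Mrps12 (19.9 and 17.5 in NSN, 16.3 and 20.1 in SN) and its partner Sars2, the mitochondrial seryl-tRNA synthetase (1.97 and 1.26 in NSN, 2.35 and 2.91 in SN), start 129 bases apart. Mrpl43 starts 56 bases from Twnk, the mitochondrial DNA helicase, which stood at 7.31 and 6.29 in NSN and 6.26 and 7.03 in SN oocytes.

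The pair of members that share a start region gave fold changes of opposite sign. Mrpl46, a mitochondria-specific large subunit protein picked out for its neighbour, stood at 57.7 and 66.0 FPKM in NSN and at 66.7 and 75.6 in SN oocytes (log2FC 0.20, limma, adjusted p = 0.236). Mrps11, a small subunit platform protein, stood at 28.9 and 30.6 in NSN and at 25.3 and 23.8 in SN oocytes (-0.27, limma, adjusted p = 0.103). Neither was called. The FPKM ratio of Mrpl46 to Mrps11 was 1.99 and 2.16 in NSN and 2.64 and 3.17 in SN oocytes, higher in both SN libraries. The pair was singled out after its values were known, so the ratio was not tested.

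Of the mitochondrial ribosomal proteins that carry other names, none passed the test. Dap3, a GTP-binding small subunit protein, stood at 81.3 and 88.4 FPKM in NSN and at 98.9 and 100.3 in SN oocytes. Chchd1 was at 18.7 and 18.7 in NSN and 23.0 and 23.7 in SN oocytes, and Ptcd3, a pentatricopeptide repeat protein, at 13.0 and 13.8 in NSN and 17.6 and 17.8 in SN oocytes. Aurkaip1 was at 35.9 and 36.8 in NSN and 40.3 and 39.1 in SN oocytes. All 4 of these small subunit genes were higher in both SN libraries, as were 44.8% of all tested genes, with log2FC of 0.13 to 0.39 (limma, lowest adjusted p = 0.0575, for Ptcd3). Gadd45gip1, of the large subunit, was at 64.5 and 56.4 in NSN and 62.1 and 79.5 in SN oocytes, with overlap.

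Other genes of mitochondrial translation were also mostly below the threshold. None of 20 tested assembly factors was called (median log2FC 0.01, 7 or 35% with an unadjusted p under 0.05). The same held for 15 translation factors (median 0.11, 1 such or 6.67%) and 11 mitochondrial aminoacyl-tRNA synthetases (median -0.02, 3 such or 27.3%). Among all tested genes 31.7% had such a p. Of 7 tested factors of mitochondrial transcription and biogenesis, Tfam, which packages mitochondrial DNA, was called lower, at 8.81 and 7.43 FPKM in NSN and 5.38 and 4.61 in SN oocytes (log2FC -0.65, limma, adjusted p = 0.0457). Its call was kept in 5 of 15 other fits, with adjusted p of up to 0.151, and was lost with the replicate block, with gene length correction and under both quantile normalization and median scaling. The mitochondrial rRNA genes mt-Rnr1 and mt-Rnr2 were not called (log2FC 0.30 and 0.03). Of the factors whose motif types were searched above, Nrf1 was at 18.5 and 17.6 in NSN and 18.5 and 18.3 in SN oocytes. Gabpb1, of GABP, was at 8.91 and 9.12 in NSN and 9.13 and 7.68 in SN oocytes, with overlap. Gabpa was at 0.486 and 0.450 in NSN and 0.230 and 0.229 in SN oocytes. Yy1 was at 0.325 and 0.253 in NSN and 0.266 and 0.216 in SN oocytes. Gabpa and Yy1 were below the minimum level and were not tested.

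The products and the cytosolic counterparts of the mitochondrial ribosome showed a few calls. Of the 13 protein genes of mitochondrial DNA, mt-Nd4, mt-Nd4l, mt-Nd5 and mt-Nd6, which encode complex I subunits, were called higher and mt-Atp6, of ATP synthase, lower. Of 15 other fits, 4 kept the call of mt-Nd4, 4 that of mt-Nd4l, 6 that of mt-Nd5, 6 that of mt-Nd6 and 8 that of mt-Atp6. Read pairs were counted without regard to strand, and whether these calls are independent of each other was not tested. Complex I genes did not all lie on one side: mt-Nd1, the most abundant of them and named after its values were seen, was at 638 and 511 FPKM in NSN and 445 and 405 in SN oocytes (log2FC -0.43, limma, adjusted p = 0.0679). The largest fold change among the called genes was that of mt-Nd5, at 29.6 and 33.8 FPKM in NSN and 58.9 and 48.6 in SN oocytes (log2FC 0.75, limma, adjusted p = 0.0364). That of mt-Co3 was larger but did not pass, at 2.64 and 5.34 in NSN and 8.44 and 7.80 in SN oocytes (1.01, limma, adjusted p = 0.0676). Mean FPKM of the 13 ran from 4.23 to 1383 in these poly(A)-primed libraries, and how well each transcript was captured was not tested. Under median scaling none of the 13 was called higher and 1 was called lower. Of 77 tested cytosolic ribosomal protein genes, 5 were called higher and 1 lower (median 0.18), and of 80 nuclear respiratory chain subunits 8 were called higher and 2 lower (median 0.20), beside 5.95% higher and 1.98% lower of all genes. Under median scaling these became 0 higher and 2 lower in each set, with medians of 0.03 and 0.05. That the mitochondrial ribosomal proteins differ from these sets was not tested.

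Markers of the cells were read as a check of the libraries. All 12 oocyte markers were tested and 9 were called lower in SN oocytes, against 1.98% of all genes, Gdf9 among them at 5239 and 4929 FPKM in NSN and 2575 and 2289 in SN oocytes. The count of 9 became 8 with the replicate block, 6 under median scaling, 5 with gene length correction and 4 under quantile normalization. It was 0 with no minimum level, without the variance trend and with gene length correction together with the replicate block. The median log2FC of the markers was -0.53, and leaving out each library gave -0.63 to -0.44. Of 16 granulosa and cumulus cell markers, 9 were listed and 5 tested, and none was called. Their summed FPKM was 34.5 and 40.2 in NSN and 44.3 and 43.2 in SN oocytes, most of it Esr2 (25.04 to 30.5). Cyp19a1 came next, at 5.81 and 8.06 in NSN and 8.38 and 8.22 in SN oocytes, and Inha, Nr5a2 and Kitl lay between 0.389 and 1.94. Fshr, the follicle-stimulating hormone receptor, was listed at 0.166 to 0.869, and Amh, Foxl2 and Inhbb were not among the listed genes. Whether cumulus cell RNA plays a part in the values of the members was not tested.

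**Figure D5:**
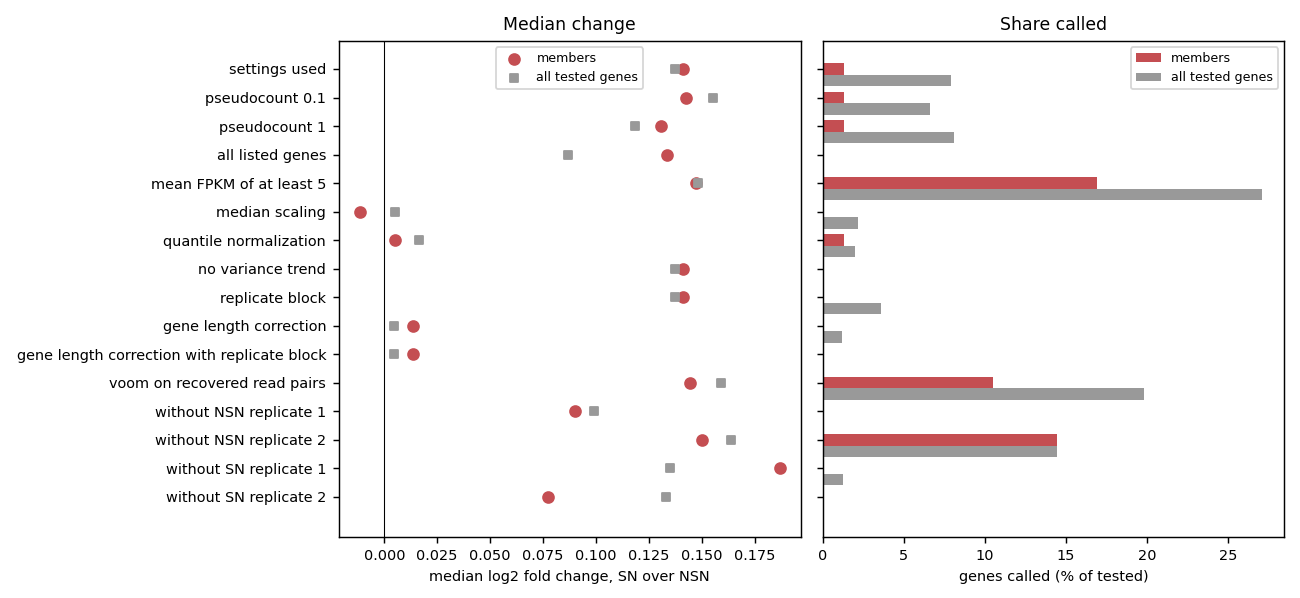
Median log2FC, SN over NSN (left), and share of tested genes called (right) for the members and for all tested genes under each way of processing. Both medians go from 0.14 in the settings used to near 0 under median scaling, quantile normalization and gene length correction, and they part without SN replicate 1 (members 0.19, all genes 0.14) and without SN replicate 2 (0.077 and 0.13), while the bars of the members do not exceed those of all genes except by a trace without NSN replicate 2.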

How the data were processed

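The 4 Smart-seq2 libraries of mouse germinal vesicle oocytes were analysed as deposited. Per the labels and the study's methods, the authors trimmed reads with Trim Galore 0.6.10, aligned them with HISAT2 (genome build GRCm39), assigned read pairs to exons using featureCounts (primary alignments, minimum mapping quality 10, no strand) and made FPKM with a script of their own, which are the deposited values. The authors also used DESeq2 on counts, which were not used here. The labels' protocol gives 3 samples per group, of which 2 per group were analysed.

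Genes averaging 0.5 FPKM or more (11672) were tested on the log2(FPKM + 0.5) scale, SN against NSN, using limma 3.58.1 under R 4.3.3 (lmFit and eBayes, trend on, two-sided, Benjamini-Hochberg over all genes tested). A fold change on this scale understates the change of low genes. The thresholds were 0.05 for adjusted p and 1.2 for fold. The members, the other gene lists and the tests were chosen with earlier results of these data known. Named members were those called, the 5 largest rises and falls, the 5 highest and lowest levels and 10 with a role of their own. Called genes of the other lists, at most 5 a list, could be named too.

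Library totals and whole read pairs were recovered from the FPKM for 16832 genes (99.8%), and the listed genes held 98.1% to 98.2% of the totals. Counting error is all that such read pairs can limit. Positions, exons and promoters came from GRCm39 with GENCODE vM39, a later release than the one the authors used. The fit was tested on simulated data (5 sets of 11655 genes, 200 of them changed, dispersion 0.01), where it recovered 57.4% of these at the median and 9.02% of its calls were wrong. Python 3.11.15, numpy 2.4.6, pandas 2.3.3, scipy 1.17.1 and matplotlib 3.10.9 were used for other values and plots. Alternatives were a pseudocount of 0.1 or 1, no minimum level, a minimum mean of 5 FPKM, median scaling, quantile normalization, no variance trend, a replicate block, a gene length correction, voom on the recovered read pairs, other thresholds and leaving out each library.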

Additional observations from a re-analysis of the deposited data

How the results depend on the processing

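The fit used called 1 of 76 members (Mrpl1), and pseudocounts of 0.1 and 1 called the same gene. The count of members called was 0 with no minimum level (16861 genes), under median scaling, without the variance trend, with gene length correction (with or without the replicate block) and when a 2-fold change was required. It was 11 of 65 with a minimum mean of 5 FPKM, 8 with voom on recovered read pairs and 12 at an adjusted p under 0.1. Quantile normalization also called 1, but this was Mrps25, lower. Leaving out each library gave 0 to 11 called members, 11 without NSN replicate 2 and 0 without each of the others, where the lone sample is assumed to vary like the other group. Genes called over the whole table numbered 926 in the fit used (695 higher, 231 lower), 257 under median scaling (78 higher, 179 lower), 230 under quantile normalization (74 higher, 156 lower) and 143 with gene length correction (42 higher, 101 lower). They were 1496 of 5519 with a minimum mean of 5 FPKM, 2311 with voom and 0 both with no minimum level and without the variance trend, where unadjusted p fell below 0.05 for 4092 and 3449 genes. The cause of these shifts was not tested.

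The median log2 fold change of the members was 0.14 in the fit used and reversed to -0.012 under median scaling. It moved to 0.0052 under quantile normalization and to 0.013 with gene length correction, with or without the replicate block. Leaving out each library gave 0.077 to 0.19.

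Of the 39 members given by name, 37 were tested. Over the settings that kept all 4 libraries, their fold changes kept direction and call in 421 instances. In 29 instances they were newly called, in 8 no longer called and in 17 reversed. Many of these settings could not reverse a sign. A changed minimum level, no variance trend, the replicate block and other thresholds leave the log2 fold change of a gene as it was. Under median scaling the reversed log2 fold changes were -0.15 (Mrpl24), -0.12 (Mrpl49), -0.033 (Mrpl12), -0.0060 (Mrpl10), -0.050 (Mrps18a) and -0.017 (Mrps36). Under quantile normalization they were -0.066 (Mrpl24), -0.11 (Mrpl49) and -0.0080 (Mrps36). With gene length correction, alone or with the replicate block, they were -0.085 (Mrpl24), -0.075 (Mrpl49), -0.032 (Mrps18a) and -0.043 (Mrps36). Leaving out each library took the values from -0.0086 to 0.026 (Mrpl24), -0.18 to 0.19 (Mrpl49), -0.0063 to 0.25 (Mrpl12), -0.027 to 0.24 (Mrps18a), -0.057 to 0.33 (Mrps36), -0.13 to 0.015 (Mrpl43), -0.14 to 0.037 (Mrps18b) and -0.20 to 0.10 (Mrps12).

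Replicate numbers are shared by the groups, and whether they pair the libraries is not known. The correlation across genes of the replicate differences was -0.07, but with 2 libraries a group it cannot decide this. With the replicate block 0 members and 422 genes were called (Mrpl1, limma, adjusted p = 0.0514). Mrpl19 and Mrps34, with 16 and 6.25 read pairs a library on average, were below the minimum level and were not tested in the fit used.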

Other observations

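Pseudogenes of members had few read pairs. Mrpl23-ps1 had 5 and 7 read pairs in NSN and 8 and 10 in SN oocytes (0.495 to 0.958 FPKM), Mrpl48-ps had 3 and 3 in NSN and 1 and 2 in SN oocytes, and Mrps36-ps1 had at most 1 in any library. The levels of members also depend on the length used for a gene. Over the length of the canonical transcript in place of the length behind the deposited values, Spearman's rho with the deposited mean FPKM was 0.928 across the 78 members, which share their libraries and read pairs. Mrps18a then ranked highest (122 FPKM), followed by Mrps33 (113), Mrpl34 (112) and Mrpl24 (98.7). Mrpl30 moved from 6.79 to 2.08 and Mrps18c from 23.6 to 5.97. Mrpl14, among the highest by the deposited values, moved from 114 to 43.0 FPKM (rank 5 to 13). Mrpl9 moved the other way, from 42.5 to 66.8 (rank 14 to 7).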
